A study of Mus musculus with 5 samples.

Results

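The neurotrophin genes Bdnf and Ntf3, the Trk receptor genes Ntrk2 (TrkB) and Ntrk3 (TrkC), and the genes of the 2 receptors for unprocessed neurotrophins, Ngfr (p75NTR) and Sort1 (sortilin), were examined in ribosome-bound RNA of Drd2 neurons from the mouse central amygdala (CeA). The members were chosen by name, as rows of the deposited table whose gene name equals 1 of these 6 symbols. Of the 6, 5 had a row among the 15093 genes of the table, and Ntf3, which encodes neurotrophin-3, had none and was counted as not expressed. Every gene of the table had a value above 1 in at least 1 library, the lowest such maximum being 1.00.

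All animals of both groups were adult Drd2-TRAP mice, which carried the Drd2-Cre BAC transgene and the Rosa26 fs-TRAP allele. In this cross Cre, driven by Drd2 regulatory sequence, switches on an EGFP-tagged ribosomal protein L10a, so that ribosomes of cells that express or once expressed the transgene can be pulled down. Fear conditioned mice gave 3 of the 5 libraries (replicates 2, 3 and 4) and home cage mice gave 2 (replicates 6 and 7), and for each library CeA tissue punched from both hemispheres of 3 animals was pooled. Tissue was taken 2 h after the session. The labels place the collection after fear extinction and call the controls home cage, whereas the study's text describes tone-shock conditioning with controls that heard the tone without shock and its methods write HC for the control group, so that the contrast is given here by the group names alone. A pool is the unit of replication, and p-values refer to pools, not to single animals. With 2 home cage pools, the spread within that group is poorly known.

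Neurotrophins are secreted growth factors that neurons release in part with activity. BDNF binds TrkB and neurotrophin-3 binds TrkC, and both receptors are tyrosine kinases that signal through Ras-MAPK, PI3K-Akt and phospholipase C-gamma. Precursor forms of these factors bind p75NTR together with sortilin, which also sorts pro-BDNF into the regulated secretory pathway. In the amygdala, BDNF and TrkB are known for their part in the consolidation and extinction of fear memory. Ntrk2 also gives rise to a truncated TrkB that lacks the kinase and is abundant in astrocytes, and a value per gene does not separate the forms.

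Bdnf is transcribed from several start sites, some of which respond to calcium through CREB, which binds the cyclic AMP response element with the core TGACGT. The RefSeq promoter table (GRCm38.p6) held 11 windows for 4 of the 6 members, of which 7 belonged to Bdnf, 2 to Ntf3, 1 to Ngfr and 1 to Ntrk2. The core was searched on both strands in the 250 bases before each start and was found in 1 of the 7 Bdnf windows and in 1 of the 11 windows in all, against 6.47% of 32851 windows of that length. The Bdnf window with a match (chr2:109692186-109692435, plus strand, the match lying 36 bases before the start) and that of Ntrk2 (chr13:58806319-58806568, plus strand), the receptor gene with the smallest p below, are printed 5′ to 3′. Capitals mark the match, here the reverse complement ACGTCA.
Bdnf window 3: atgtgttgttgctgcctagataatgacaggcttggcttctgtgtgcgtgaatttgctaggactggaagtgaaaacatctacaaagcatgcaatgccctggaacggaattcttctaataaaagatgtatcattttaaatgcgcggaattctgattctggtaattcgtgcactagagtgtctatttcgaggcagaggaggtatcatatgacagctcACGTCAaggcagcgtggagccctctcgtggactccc
Ntrk2 window 1: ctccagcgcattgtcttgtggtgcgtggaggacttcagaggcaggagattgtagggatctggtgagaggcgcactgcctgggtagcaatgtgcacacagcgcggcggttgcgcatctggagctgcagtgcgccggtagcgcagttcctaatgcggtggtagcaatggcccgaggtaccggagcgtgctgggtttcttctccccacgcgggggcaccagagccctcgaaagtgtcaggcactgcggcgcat
The deposited values are sums over each gene, so the use of single Bdnf start sites was not measured.

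Values are reads scaled to 1000000 per effective library (CPM), and 3 reads corresponded to 0.1002 to 0.1582 CPM, a limit that reflects read counting alone. Libraries held 19605318 to 27937520 reads on genes. Log2(CPM + 1) values correlated across genes, which are not independent replicates, with Pearson's r of 0.979 to 0.986 among the fear conditioned libraries but 0.787 between the home cage libraries, and 976 and 2681 genes were listed at 0 in home cage replicates 6 and 7 against 159 to 349 in the others. The home cage pools thus stood further from each other than the fear conditioned pools did. Markers of Drd2-type striatal projection neurons were present throughout, with Drd2 at 326, 375 and 555 CPM in the fear conditioned and 128 and 262 CPM in the home cage libraries, and Adora2a, an adenosine receptor gene of the same cells, at 453, 771 and 775 CPM against 105 and 275 CPM. Slc17a7, the vesicular glutamate transporter of pallial neurons, was at 152, 141 and 34.5 CPM against 227 and 197 CPM. The summed level of 10 Drd2-type marker genes was 22923 to 25093 CPM in the fear conditioned and 8655 to 14697 CPM in the home cage libraries, all 10 having a higher mean log2 value after fear conditioning. The groups thus differed in markers of the targeted cells as well as in condition, and the part of this in the results below was not tested.

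Sort1 had the highest level per transcript length of the 5 genes, with a mean of 28.7 CPM per kilobase and a range of 15.8 to 42.9 over the 5 libraries. Ntrk2 followed with a mean of 13.8 CPM per kilobase (8.95 to 21.7) and Ntrk3 with 9.06 (6.01 to 11.8). Sort1 exceeded Ntrk2 per kilobase in all 5 libraries, although their ranges over libraries overlapped, and Ntrk2 exceeded Ntrk3 in 4 of 5. Bdnf, a mean of 2.07 CPM per kilobase (0.320 to 4.63), lay below Ntrk3 without overlap. Ngfr was lowest at 0.210 CPM per kilobase (0 to 0.447), and in fear conditioned replicate 4 it exceeded Bdnf. Ranked among all genes by this level, Sort1 lay between percentiles 75.4 and 88.1, Ntrk2 between 64.6 and 80.4, and Bdnf between 11.1 and 51.4, the widest span of the 5.

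**Figure D1:**
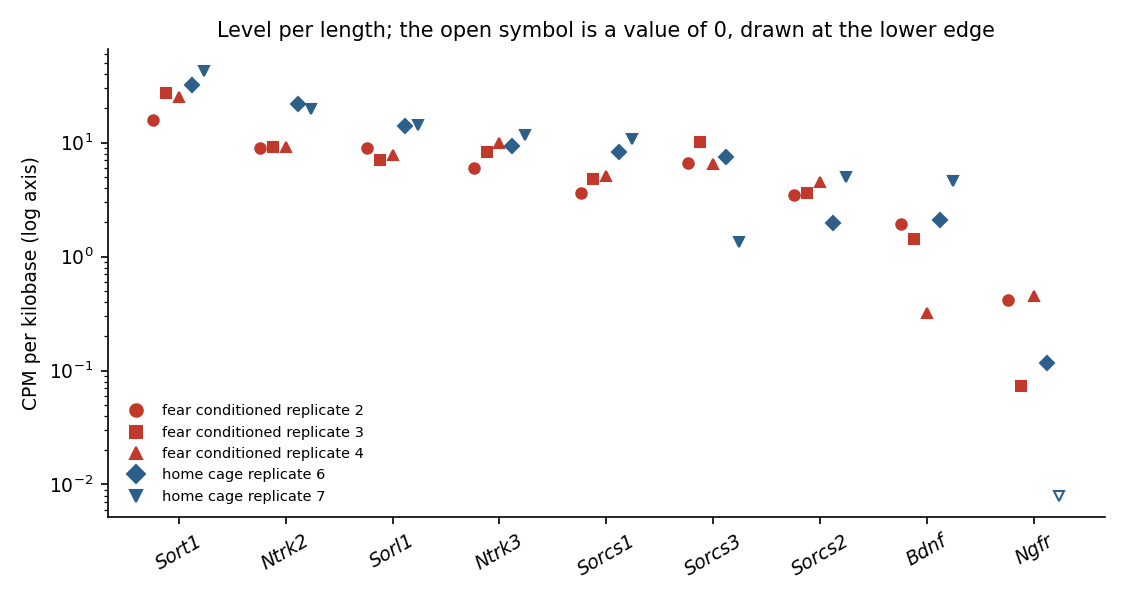
CPM per kilobase of gene length (log axis) of the 5 listed genes in the table and of 4 related receptor genes, ordered by their mean, with 1 symbol per library (red, fear conditioned; blue, home cage). Sort1 was highest at a mean of 28.7, Bdnf and Ngfr were lowest at 2.07 and 0.210, and the open symbol marks the value of 0 for Ngfr in home cage replicate 7.

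The comparison of fear conditioned with home cage libraries asks whether the ribosome-bound level of these genes in Drd2 neurons differed after the session. Of the 6 genes, 4 passed the filter of a mean of at least 1 CPM and were tested, and 0 of the 4 passed the threshold of adjusted p under 0.05 with an absolute log2 fold change over 0.5 (limma, background 0.0% of 13560 genes). All 4 had lower mean log2 values after fear conditioning. In 3 of the 4 (Bdnf, Ntrk2 and Sort1) every fear conditioned library lay below both home cage libraries, an arrangement seen in 16.1% of all genes tested. At an unadjusted p under 0.05 there was 1 lower gene, Ntrk2, against 7.32% of all genes. The 3 genes were measured in the same libraries and are not separate replicates of the contrast. Fewer cells of a type and less RNA per cell cannot be told apart in such pooled samples.

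**Figure D2:**
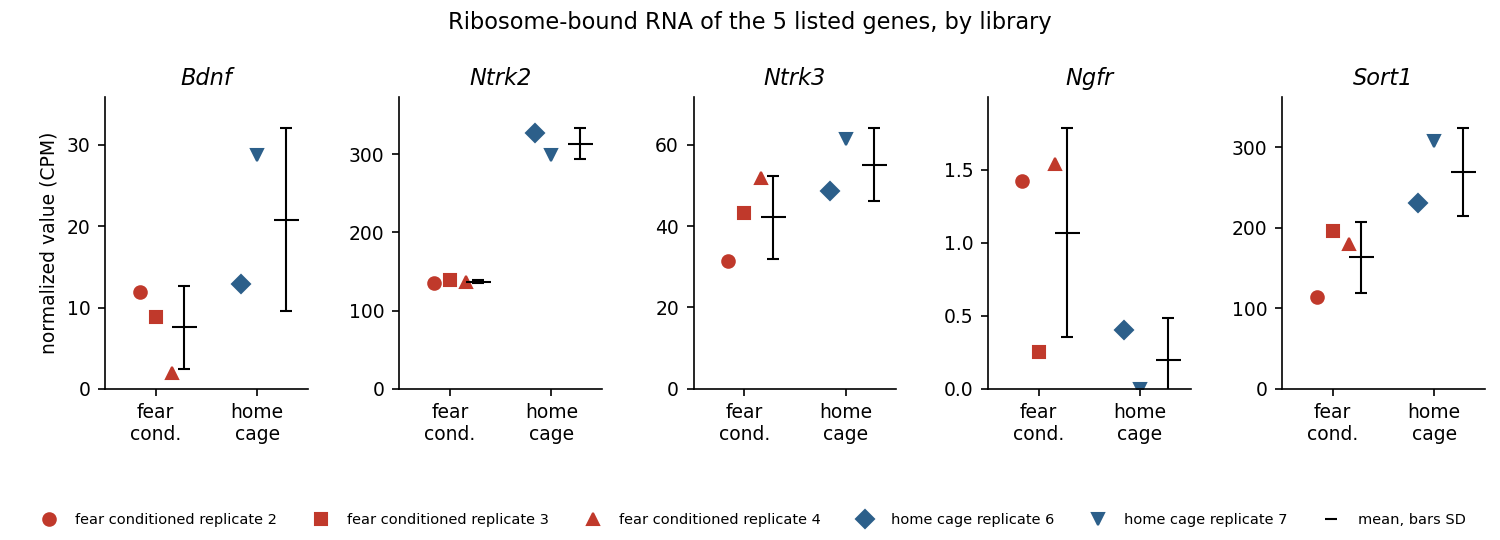
CPM of the 5 genes on linear axes starting at 0, with 1 symbol per library and, beside each group, the mean with bars of 1 SD (n = 3 fear conditioned, n = 2 home cage), the lower home cage bar of Ngfr ending at the axis. Ntrk2 stood at 135 to 139 in the fear conditioned and 299 to 327 in the home cage libraries, while the groups overlapped for Ntrk3 and Ngfr.

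Ntrk2 (ENSMUSG00000055254), the TrkB gene, was at 135, 139 and 137 CPM in fear conditioned replicates 2, 3 and 4 and at 327 and 299 CPM in home cage replicates 6 and 7. The fear conditioned values lay within a few CPM of each other, and the groups did not overlap. The means were 137 ± 1.96 CPM (SD, n = 3) and 313 ± 19.7 CPM (SD, n = 2), a 2.29-fold lower level after fear conditioning. The log2 fold change was -1.19 with an SE of 0.19 and a 95% confidence interval of -1.66 to -0.72, which rested on 2765 to 9803 reads per library. It did not pass across all genes (limma, p = 0.000740, adjusted p = 0.197), and the exact permutation test gave p = 0.1, the smallest that 3 against 2 libraries allow. On the recovered reads Ntrk2 passed with DESeq2 (adjusted p = 5.99e-08, where 4.42% of genes were called lower) and with edgeR's likelihood ratio test (adjusted p = 0.00112, where 2.51% were called lower), but not with edgeR's quasi-likelihood test (adjusted p = 0.156) or limma voom (adjusted p = 0.113). A long noncoding gene, Gm53063, overlaps Ntrk2 in RefSeq, and the strand setting of the counting is not given in the sources used here.

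Astrocyte markers moved in the same direction. Of 10 markers, 8 were lower and 2 higher after fear conditioning. Of the 8, 7 had an unadjusted limma p under 0.05 and groups that did not overlap. Over all genes tested, 7.32% were lower at that p and 16.1% were lower without overlap. The 10 markers summed to 901 to 1110 CPM in the fear conditioned and 2336 to 3013 CPM in the home cage libraries. None of the 10 was at 0 in any library, although Gjb6 and Aldh1l1 had only 0.105 and 1.21 CPM in home cage replicate 7, where Slc1a2, the main astrocytic glutamate transporter, reached 1905 CPM. Expressed as a percent of that sum, a ratio chosen after the values were seen, Ntrk2 was at 12.6, 15.4 and 12.4 in the fear conditioned libraries and at 14.0 and 9.94 in the home cage libraries, so the groups overlapped on this scale. In home cage replicate 7, Slc1a2 alone made up 1905 of the 3013 CPM of that sum, so the low percent there depended largely on 1 marker. The part of astrocyte RNA in the lower Ntrk2 level was not tested further.

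Bdnf (ENSMUSG00000048482), which encodes the main TrkB ligand, was at 11.9, 8.83 and 1.99 CPM after fear conditioning and at 12.9 and 28.7 CPM in the home cage libraries. The spread was wide in both groups, with fear conditioned replicate 4 lowest and home cage replicate 7 highest, and the highest fear conditioned value came within about 1 CPM of the lower home cage value. These values rested on 252, 212 and 40 reads and on 385 and 545 reads. The means were 7.59 ± 5.10 CPM (SD, n = 3) and 20.8 ± 11.2 CPM (SD, n = 2), 2.74-fold lower after fear conditioning. The log2 fold change of -1.49 had an SE of 0.80 and a 95% interval of -3.43 to 0.45, which included 0, and did not pass (limma, p = 0.111, adjusted p = 0.395, exact permutation test p = 0.2).

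Markers of pallial glutamatergic neurons, a major source of BDNF in the forebrain, were beside this at a summed level of 80.0 to 258 CPM in the fear conditioned and 309 to 454 CPM in the home cage libraries. Of 9 such markers, 6 were lower and 3 higher after fear conditioning, with 2 at an unadjusted limma p under 0.05 in each direction. Over all genes tested, 9.49% were higher and 7.32% lower at that p. Fear conditioned replicate 4, the library with the least Bdnf, also had the lowest of these sums, but home cage replicate 7, with the most Bdnf, had a lower sum than home cage replicate 6. As a percent of the sum, again chosen after the values were seen, Bdnf was at 4.63, 3.77 and 2.48 in the fear conditioned and at 2.83 and 9.29 in the home cage libraries, and the groups overlapped. The part of RNA from such neurons in the Bdnf values was not tested further.

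Ntrk3 (ENSMUSG00000059146), the receptor gene for neurotrophin-3, was at 31.4, 43.1 and 51.9 CPM in the fear conditioned and 48.7 and 61.4 CPM in the home cage libraries. Fear conditioned replicate 4 exceeded home cage replicate 6, so the groups overlapped. The log2 fold change was -0.40 with an SE of 0.33 and a 95% interval of -1.20 to 0.40 (limma, adjusted p = 0.563), and the exact permutation test gave p = 0.3. A change in either direction within this interval was not resolved. The long noncoding gene Gm39038 overlaps Ntrk3.

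The ratio of Ntrk2 to Ntrk3 within a library, which does not depend on library scaling, was 4.30, 3.22 and 2.65 after fear conditioning and 6.72 and 4.88 in home cage libraries. The groups did not overlap, and the difference in log2 ratio was -0.79 (1.73 ± 0.35 against 2.52 ± 0.33, SD), with p = 0.2 by the exact permutation test and 0.3 after adjustment over 3 ratios. The log2 ratio of Bdnf to Ntrk2, ligand to receptor, was -4.53 ± 1.39 (SD, n = 3) against -4.03 ± 0.91 (SD, n = 2). Its difference of -0.50 lay within the SD of either group (p = 0.8 in an exact permutation test, adjusted p = 0.8), and it was 0.29 without fear conditioned replicate 4 and 0.14 without home cage replicate 7.

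Sort1 (ENSMUSG00000068747), which encodes the sorting receptor sortilin, was at 114, 196 and 180 CPM in the fear conditioned and 231 and 308 CPM in the home cage libraries. Fear conditioned replicate 2 was lowest, and the groups did not overlap. The means were 163 ± 43.7 CPM (SD, n = 3) and 269 ± 54.2 CPM (SD, n = 2), 1.65-fold lower after fear conditioning. The log2 fold change was -0.74 with an SE of 0.31 (limma, p = 0.0506, adjusted p = 0.298; exact permutation test p = 0.2). Without home cage replicate 6, Sort1, Bdnf and Ntrk2 all passed (adjusted p = 0.0368, 0.0437 and 0.00289), but 8025 of all genes then passed as well, with the remaining home cage library assumed to vary like the others.

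Ngfr (ENSMUSG00000000120), which encodes p75NTR, was at 1.42, 0.250 and 1.54 CPM in the fear conditioned and at 0.401 and 0 CPM in the home cage libraries, from 30, 6 and 31 reads and from 12 and 0 reads. It did not reach the filter, with a mean of 0.722 CPM. Only fear conditioned libraries put it above 1 CPM, a level that every gene of the table exceeded in some library. Its row thus depended on the group where it was higher. The group comparisons of Ngfr and of its ratio to Sort1 are therefore given as description and cannot show a difference. The count of 0 in home cage replicate 7 allows up to 0.158 CPM. The groups overlapped, since fear conditioned replicate 3 lay below home cage replicate 6, and the exact permutation test gave p = 0.3. The log2 fold change without the filter was 0.74, with a 95% interval of -0.41 to 1.89 (limma, adjusted p = 0.460). In the forebrain p75NTR is best known from basal forebrain cholinergic neurons. The 3 cholinergic markers in the table (Chat, Slc5a7 and Gbx1) summed to 38.9, 26.1 and 83.1 CPM in the fear conditioned and 30.3 and 45.1 CPM in the home cage libraries. Home cage replicate 7, with Ngfr at 0, had the second highest sum. Over all 5 libraries Ngfr did not follow the order of these sums. With home cage replicate 7 set aside after the values were seen, it did, from fear conditioned replicate 3 (lowest) to fear conditioned replicate 4 (highest). That order rested on 6 to 31 reads per library. The part of such cells in the Ngfr values was not tested. The log2 ratio of Sort1 to Ngfr, with 1 added to both, was 6.34 ± 0.88 (SD, n = 3) against 7.82 ± 0.64 (SD, n = 2), a difference of -1.48 (exact permutation test p = 0.2, adjusted p = 0.3).

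**Figure D3:**
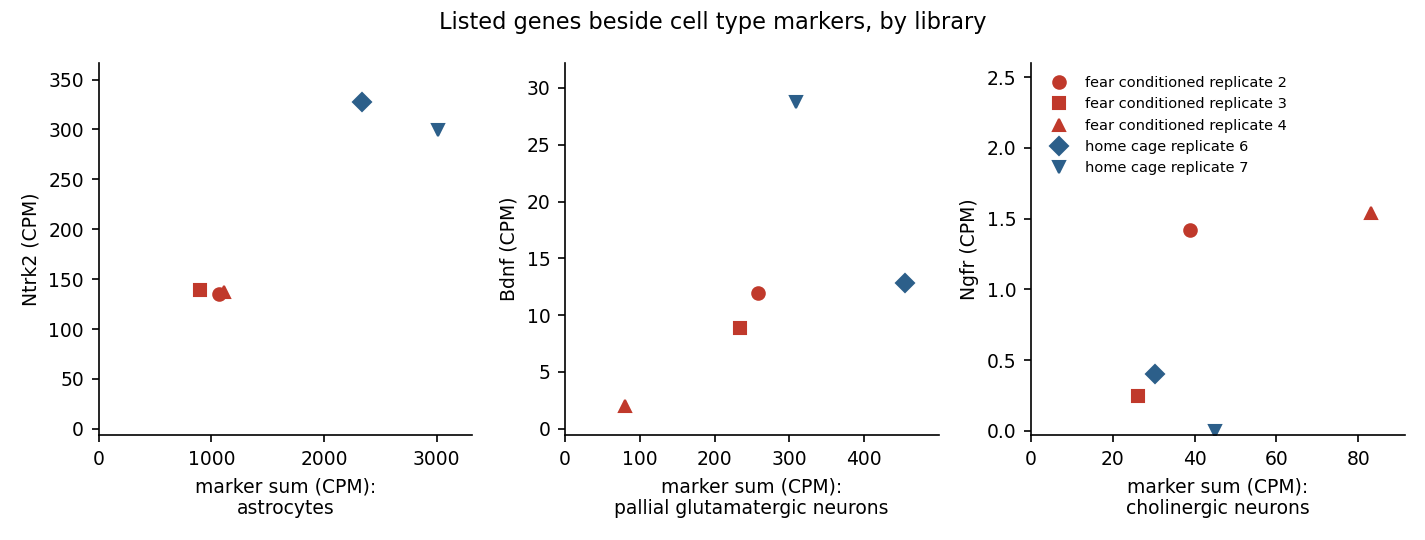
CPM of Ntrk2, Bdnf and Ngfr in each library (vertical) against the summed CPM of astrocyte, pallial glutamatergic and cholinergic marker genes (horizontal), on linear axes. Home cage libraries lay high on both axes for Ntrk2, at sums of 2336 and 3013 CPM, while fear conditioned replicate 4 had the lowest Bdnf and the lowest pallial sum, 80.0 CPM, and home cage replicate 7 the highest Bdnf at a lower pallial sum than replicate 6.

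Among the related genes, Ntf5 (neurotrophin-4) had no row in the table, and 5 receptor genes were tested, of which 4 are described. Of these, 0 passed, 0 were higher and 2 lower at an unadjusted p under 0.05 (background 9.49% higher and 7.32% lower), where the median log2 fold change of all genes was 0.08. The 2 lower genes encode sorting receptors of the sortilin family. Sorl1, which encodes SorLA, was at 99.7, 79.1 and 88.2 CPM in the fear conditioned and 156 and 159 CPM in the home cage libraries (log2 fold change -0.82, limma adjusted p = 0.206). Sorcs1 was at 27.6, 36.4 and 38.9 CPM against 62.7 and 82.8 CPM (log2 fold change -1.07, limma adjusted p = 0.217). Neither pair of groups overlapped.

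In 2 other genes of this family the groups overlapped. Sorcs2, whose product binds pro-neurotrophins together with p75NTR, was at 30.5, 31.5 and 39.6 CPM against 17.4 and 43.9 CPM (log2 fold change 0.27). Sorcs3 was at 37.0, 56.8 and 36.3 CPM against 41.7 and 7.59 CPM, and its log2 fold change was 1.18, with home cage replicate 7 lowest and replicate 6 within the fear conditioned range.

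**Figure D4:**
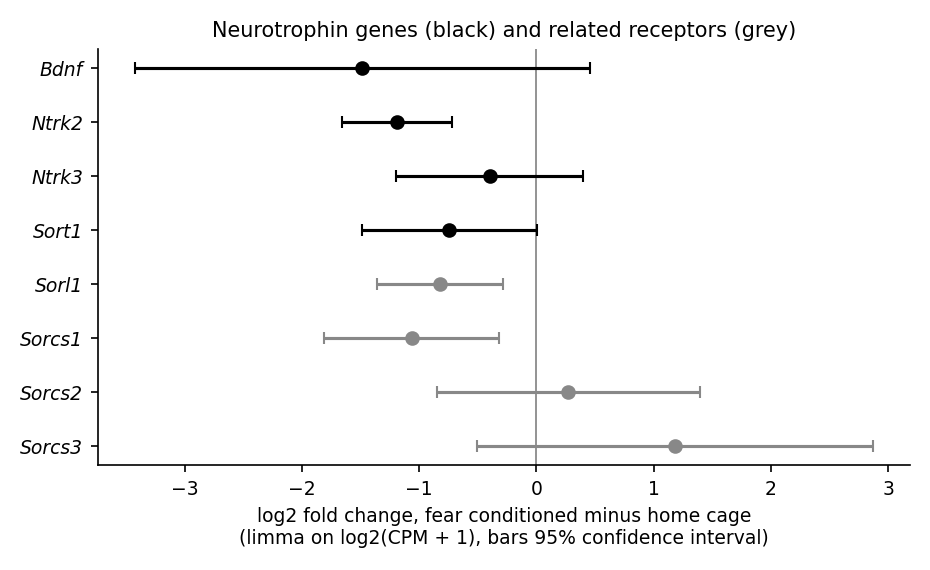
Log2 fold change, fear conditioned minus home cage, from limma on log2(CPM + 1), for the 4 tested listed genes (black) and 4 related receptor genes (grey), with bars for the 95% confidence interval. The intervals of Ntrk2, Sorl1 and Sorcs1 lay below 0, that of Sort1 reached 0.00, and none passed after adjustment over all genes.

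Among genes for neurotrophin maturation and secretion, 13 of 18 listed were tested, and 4 had higher and 9 lower mean log2 values after fear conditioning. At an unadjusted p under 0.05, 0 were higher and 2 lower, beside 9.49% and 7.32% of all genes, and the median log2 fold change was -0.15 against 0.08. Serpini1, which encodes neuroserpin, an inhibitor of the plasminogen activator that leads to cleavage of pro-BDNF, was at 100.2, 101 and 95.4 CPM against 205 and 169 CPM (log2 fold change -0.91, limma adjusted p = 0.197). Pcsk6, a proprotein convertase gene, was at 4.60, 3.29 and 5.41 CPM against 10.7 and 44.2 CPM (log2 fold change -2.10, adjusted p = 0.245). The highest levels per kilobase were those of Cpe, the carboxypeptidase E of secretory granules, and Scg2, secretogranin II, with log2 fold changes of -0.10 and -0.15 and overlapping groups.

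The Trk adaptor list gave values in both directions. Of its 24 genes, 22 were tested, with 4 higher and 2 lower at an unadjusted p under 0.05 (beside 9.49% and 7.32% of all genes) and a median of 0.18. The higher genes were Shc3, a neuronal Shc adaptor (8.39, 15.3 and 12.5 CPM against 2.91 and 0.0527 CPM, log2 fold change 2.65), Frs3 (1.60), the insulin receptor substrate Irs2 (1.77) and Sh2b1 (0.54). The lower genes were Frs2, a docking protein that competes with Shc for the activated Trk receptor (16.2, 20.4 and 24.1 CPM against 43.6 and 87.5 CPM, log2 fold change -1.58), and Rapgef1, an exchange factor for Rap1 (-1.12). Frs2 and Frs3, close homologues, thus had log2 fold changes of opposite sign, with limma adjusted p = 0.206 and 0.268. Crk and Grb2, the adaptors with the most reads per kilobase, overlapped between groups (0.32 and 0.22). In home cage replicate 7, Shc3 was at 1 read and Irs2 at 1.53 CPM.

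In the Ras-MAPK and PI3K-Akt list all 25 genes were tested, with 2 higher and 0 lower at an unadjusted p under 0.05, no larger a share than over all genes (9.49% and 7.32%), and a median of 0.23. Akt2, an Akt kinase, was at 80.5, 130 and 93.4 CPM against 40.3 and 55.0 CPM (log2 fold change 1.06, limma adjusted p = 0.217), and Hras, a Ras gene listed as Hras1, had a log2 fold change of 0.64. Map2k1, the MEK1 kinase gene, highest per kilobase, had a log2 fold change of -0.04 with overlapping groups. The list of p75NTR partners had 18 of 19 genes tested, with 2 higher and 0 lower, beside the same 9.49% and 7.32%, and a median of 0.13. Rhoa, the GTPase that p75NTR regulates, was at 153, 148 and 167 CPM against 56.3 and 62.8 CPM (log2 fold change 1.38, limma adjusted p = 0.197), and Irak1, an adaptor kinase, had a log2 fold change of 1.65. Ngfrap1 and Maged1, both p75NTR interactors and highest per kilobase, had -0.07 and -0.46.

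The activity-regulated list held genes that neuronal activity or BDNF induces and regulators of Bdnf transcription, and all 17 were tested. Of these, 10 had higher and 7 lower mean log2 values after fear conditioning. At an unadjusted p under 0.05, 2 were higher and 1 lower, again beside 9.49% and 7.32% of all genes, and the median was 0.45. Dusp6, a MAP kinase phosphatase gene induced by growth factor signalling, was at 39.6, 71.8 and 40.7 CPM against 16.1 and 10.9 CPM (log2 fold change 1.81, limma adjusted p = 0.197). Homer1, a postsynaptic scaffold gene with an activity-induced short form, was at 250.1, 457 and 391 CPM against 179.9 and 226 CPM (log2 fold change 0.81). The highest per kilobase, Junb and Egr1, overlapped between groups, with log2 fold changes of 0.45 and 0.65. Over the 6 pathway lists, 0 of the 100 tested genes passed after adjustment, and the lowest adjusted p was 0.197.

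**Figure D5:**
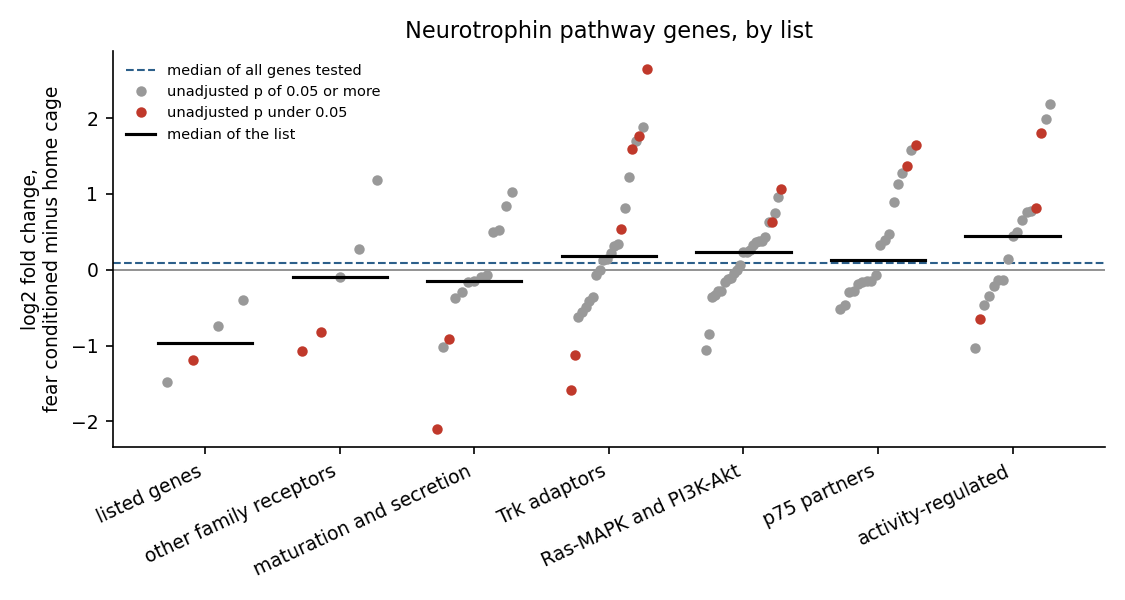
Log2 fold change, fear conditioned minus home cage, of each tested gene of the listed genes and of 6 pathway lists, with black bars for list medians and a dashed line for the median of all genes tested, 0.08. Red points had an unadjusted p under 0.05, none passed after adjustment, and list medians ran from -0.15 to 0.45 beside -0.96 for the 4 listed genes.

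The genes with the pattern most like that of each member over the 5 libraries were found among 9276 genes by the root mean square difference of centred log2(CPM + 1) values. Nearest to Ntrk2 were Adcyap1r1 (0.0513), the receptor gene for the peptide PACAP, then Fads1 and Tcf12. Adcyap1r1 was at 42.2, 46.7 and 43.2 CPM against 111 and 102 CPM. Nearest to Bdnf, at larger differences, were Sidt1 (0.298), Nptx1 (0.348), which encodes neuronal pentraxin 1, and Mycl1 (0.371), each lowest in fear conditioned replicate 4 and highest in home cage replicate 7. Nearest to Ntrk3 were Clcn3 (0.0742), Fstl1 and Far1, and nearest to Sort1 were Arhgef12 (0.0646), 9330159F19Rik and Kdsr.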

How the data were processed

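Ribosome-bound RNA was isolated by the authors from CeA punches, amplified (SMARTer, Nextera XT) and sequenced, and the methods name Tuxedo DESeq as the software. The submitters' processing notes name DESeq and mm8. The aligner, the annotation and the use of strand are not given in the sources used here. The authors deposited a normalized signal per gene and library (CPM of an effective library size) with a gene length. All values (100%) were whole multiples of the value of 1 read within 0.01, which gave the recovered reads.

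The members and gene lists were chosen with earlier results of these data known. Groups came from the labels. Groups were compared with limma 3.58.1 (eBayes with a trend) on log2(CPM + 1), a scale that understates changes of low genes, for the 13560 genes whose mean reached 1, with two-sided p-values adjusted over them by the Benjamini-Hochberg method. Single values and within-library ratios were compared with two-sided exact permutation tests over 10 splits, smallest p 0.1. Alternatives used edgeR 4.0.16 and DESeq2 1.42.0 on recovered reads. Named genes were the members, their family, and of each pathway list the genes with an unadjusted p under 0.05 and the 2 with the highest level per kilobase, together with Drd2, Adora2a, Slc17a7 and the 3 genes (mean of at least 10) most like each member. Other marker genes were named after their values were seen. Scripts ran in R 4.3.3 and in Python 3.11.15 (pandas 2.3.3, numpy 2.4.6, matplotlib 3.10.9). Promoter windows came from RefSeq (GRCm38.p6), which had none for Ntrk3 and Sort1. A few genes that these rules select are not reported here. The qPCR, in situ hybridization and behavioral experiments are not analysed here.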

Additional observations from a re-analysis of the deposited data

How the results depend on the processing

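No paired analysis was possible because the groups share no replicate numbers. The log2 fold changes of Bdnf, Ntrk2, Ntrk3 and Sort1 stayed below 0 under every alternative run (pseudocount, filters, quantile normalization, no trend, library weights, edgeR, DESeq2, voom and each library left out). The count of listed genes past the threshold, 0 with limma, was 1 with edgeR's likelihood ratio test and with DESeq2 (Ntrk2, log2 fold changes -1.19 and -1.23), where 1115 and 1296 of all genes passed. With 1 library left out it ranged from 0 to 3, and that of all genes from 0 to 8025, with 8025 without home cage replicate 6, 3722 without home cage replicate 7 and 1 without fear conditioned replicate 3, and the lone home cage library is then assumed to vary like the others. Ntrk2 passed without either home cage library, and Bdnf and Sort1 without replicate 6. Leaving out 1 library gave log2 fold changes of -2.04 to -0.85 for Bdnf, -1.25 to -1.12 for Ntrk2, -0.56 to -0.20 for Ntrk3 and -0.95 to -0.50 for Sort1. The difference in log2 ratio of Bdnf to Ntrk2 ranged from -1.15 to 0.29 and reversed without fear conditioned replicate 4 (0.29) and without home cage replicate 7 (0.14). List medians ranged, with 1 library left out, from -0.45 to 0.092 for the family, -0.22 to 0.47 for Trk adaptors, -0.10 to 0.37 for p75NTR partners, -0.07 to 0.38 for Ras-MAPK and PI3K-Akt genes and -0.018 to 0.74 for activity-regulated genes. The family median was 0.14 with library weights (1.96 to 7.07 for fear conditioned, 0.172 for home cage libraries), the adaptor median 0.00 (0.0005) when every library had to reach 1 CPM, and the p75NTR median -0.11 with that filter, 0.36 with a pseudocount of 0.1 and 0.35 with voom. The Ras-MAPK and PI3K-Akt median, 0.23 with limma, was -0.07 without home cage replicate 7, -0.03 with DESeq2 and 0.0095 with edgeR under TMM. The cause of these shifts was not tested. Depth limits Ngfr, at 0 to 31 reads, and Bdnf in fear conditioned replicate 4, at 40 reads.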

Other observations

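Several further marker lists differed between the groups in the same libraries. Choroid plexus markers summed to 58.1 to 110.4 CPM in the fear conditioned and 1011 to 1415 CPM in the home cage libraries, and oligodendrocyte precursor markers to 24.9 to 32.3 CPM against 76.6 to 93.3 CPM. Endothelial and mural markers summed to 14.3 to 45.9 CPM against 81.5 to 86.8 CPM, meningeal fibroblast markers to 3.70 to 11.0 CPM against 24.3 to 38.0 CPM, and oligodendrocyte markers to 1255 to 2658 CPM against 2715 to 5188 CPM. Single genes carried the choroid plexus, vascular and meningeal sums, chosen for mention after their values were seen. Ttr made up most of the home cage choroid plexus sums, at 913 and 1320 CPM against 0.522, 22.1 and 0.348 CPM after fear conditioning. Clic6 made up most of the fear conditioned sums, at 50.9, 77.3 and 56.2 CPM against 51.1 and 64.2 CPM, with overlapping groups. Of the 6 tested choroid plexus markers, 5 had lower and 1 had a higher mean log2 value after fear conditioning. Rgs5 was at 5.83 to 11.7 CPM against 48.3 and 36.2 CPM, Kdr was high only in home cage replicate 7 (31.3 CPM), Dcn was highest in home cage replicate 6 (30.3 CPM) and Col1a2 in replicate 7 (24.2 CPM). Cldn5 went the other way, at 8.91, 1.79 and 7.25 CPM against 1.14 and 0.0527 CPM. Of the 7 tested endothelial and mural markers, 6 had lower and 1 had a higher mean log2 value after fear conditioning. Tek (2.47, 0.125 and 1.69 CPM) and Kcnj8 (3.37, 0 and 0.596 CPM) were at 0 in both home cage libraries. Neither was tested, and only fear conditioned libraries put them above 1 CPM and so in the table. Groups overlapped for the sum of microglial markers, at 52.3 to 95.7 CPM against 83.1 to 103 CPM. They also overlapped for the sum of markers of CeA neuron types, at 164 to 312 CPM against 302 to 520 CPM. Of these 7 CeA markers, 3 (Prkcd, Sst and Calcrl) were lower after fear conditioning without overlap and 0 were higher without overlap. Over all genes tested, 16.1% were lower without overlap. No gene of these lists passed limma's adjusted threshold.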
